A study of Drosophila melanogaster with 16 samples.

Results

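The sex difference in small RNAs was examined in old flies that lack dFOXO, the single Drosophila FOXO transcription factor acting downstream of insulin signalling. The libraries were chosen by their labels: 4 of the 16 total small RNA libraries of the series, 2 of females and 2 of males, all of genotype wDah;dfoxo{delta}94 and 31 days of age. The null allele came from an imprecise P-element excision that was backcrossed into the wDah background, and wDah flies were the wildtype controls. Each library was made from the RNA of 40 whole flies. The other 12 libraries hold dFOXO-null flies of 5 to 6 days and wildtype flies of both ages, again with 2 libraries of each sex, and they are used below only where a comparison needs them. Males and females shared their vials at 25°C. As a model the group has limits: it rests on 1 null allele, each library pools 40 animals, and the whole body includes the ovary in one sex and the testis in the other. In whole flies, fewer cells of a type and less RNA per cell cannot be told apart.

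Small RNAs of flies fall into 3 main classes. miRNAs are cut from hairpin precursors and mostly load into Ago1, siRNAs are cut from long double-stranded RNA by Dcr2 and load into Ago2, and piRNAs are made without Dicer and load into Piwi proteins. The piRNAs are the longest class, they are abundant in gonads, and they silence transposons in the germline and in the somatic cells that surround it. The siRNAs silence transposons and viruses in the soma as well. Reads of 19 to 25 nt hold the miRNAs and siRNAs together with the shortest piRNAs, and reads of 21 nt are the usual length of a siRNA.

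Counts were read from 3 tables: 209 miRNAs and 122 transposons with reads of 19 to 25 nt, 156 miRNAs and 109 transposons with reads of 21 nt, and 2303 annotated transcripts in the dm6 genome. The counted reads of 19 to 25 nt numbered 4809933 and 1428060 in the female libraries (replicates 1 and 2), against 3721873 and 596871 in the male libraries. In the table of 21 nt reads the totals were 568650 and 205669 in females, against 571346 and 114210 in males, and on annotated transcripts 3557336 and 1133759 in females, against 1846901 and 394784 in males. Replicate 2 was therefore the shallower library in both sexes. Levels are given as a percent of all counted reads of a library without spike-ins, and a call means an adjusted p under 0.05 in edgeR's quasi-likelihood test over all features of a table.

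Gonad markers separated the sexes as labelled, and 1 library stood apart. The summed level of 4 ovary miRNA strands (miR-318-3p, both strands of miR-994, and miR-989-3p) was 2.76 and 1.75% in females, against 0.0212 and 0.155% in males. The 6 other male libraries of the series held 0.0106 to 0.0303%, so male replicate 2 was above every one of them and still below the 6 other female libraries, at 1.28 to 4.82%. Flam, the source locus of piRNAs in ovarian follicle cells, took 0.0116 and 0.0273% of reads in females, against 0.000433 and 0.00355% in males, where the 6 other males held 0.000251 to 0.000530%. Male-limited markers did not set this library apart. The Stellate family took 0.0426 and 0.0464% of reads in females, against 3.71 and 5.50% in males, within the 2.60 to 8.34% of the other males, and the testis miRNA cluster mir-972 to mir-979 took 6.24e-05 and 7.00e-05% in females, against 0.0147 and 0.0196% in males, within the 0.0102 to 0.0324% of the other males. The part of these reads in the results was not tested. Values without male replicate 2 are given for the main results.

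**Figure D1:**
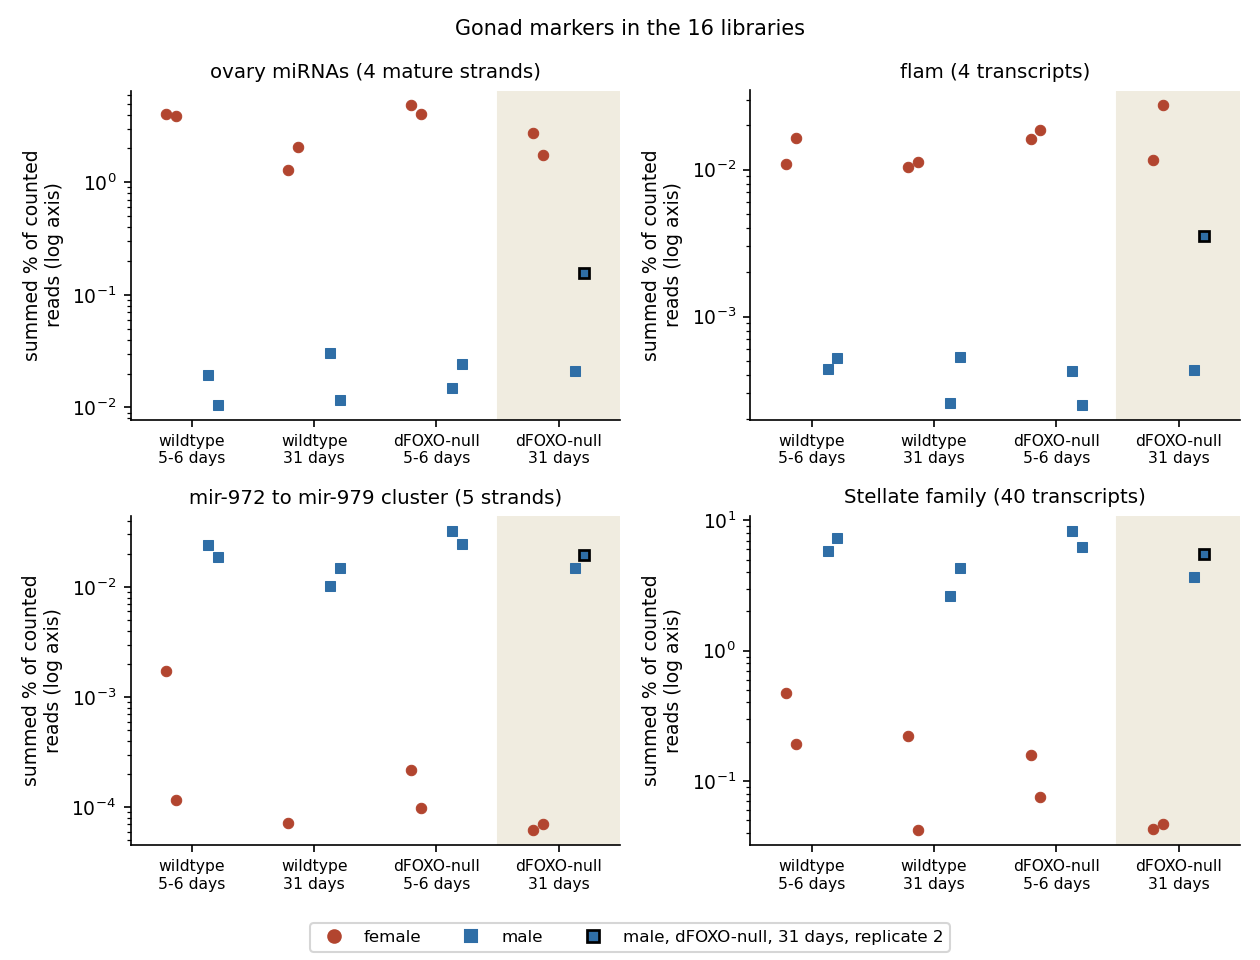
Summed level of 4 gonad marker groups in the 16 libraries, as percent of counted reads on log axes, with females (circles) left of males (squares) at each genotype and age and a shaded band for dFOXO-null flies of 31 days. The outlined square is male replicate 2, at 0.155% for the ovary miRNAs against 0.0106 to 0.0303% in the 6 males of other conditions; 1 female library with no read on the mir-972 to mir-979 cluster is not drawn.

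Transposons took a larger share of the small RNA reads of females. They made up 9.58 and 16.6% of the counted 19 to 25 nt reads in old dFOXO-null females, against 0.557 and 1.75% in males. Every female value was above every male value. The means were 13.1 ± 4.94% in females and 1.15 ± 0.845% in males (SD, n = 2 each), an 11.3-fold ratio, and the ratio was 17.2 between the libraries numbered 1 and 9.46 between those numbered 2. Without male replicate 2 it was 23.5. In 21 nt reads the share was 6.93 and 11.4% in females, against 1.12 and 1.63% in males. Here the ratio of the means was 6.64, and it was 6.18 and 6.96 within the replicate numbers. With 2 libraries a sex, an exact permutation test cannot give a two-sided p below 1 in 3, so no test is given for these shares.

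The same direction was present in every other condition. For 19 to 25 nt reads the female to male ratio of mean shares was 25.5 in young dFOXO-null flies, 33.5 in young wildtype flies and 20.1 in old wildtype flies. In females of these conditions the share was 11.2 to 23.5%, and in males it was 0.430 to 1.04%. Of the old dFOXO-null females, replicate 2 lay within this range and replicate 1 below it, and male replicate 2, at 1.75%, lay above all other males. In 21 nt reads the ratios were close to each other, with 6.80 in young dFOXO-null flies, 8.48 in young wildtype flies and 6.48 in old wildtype flies.

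**Figure D2:**
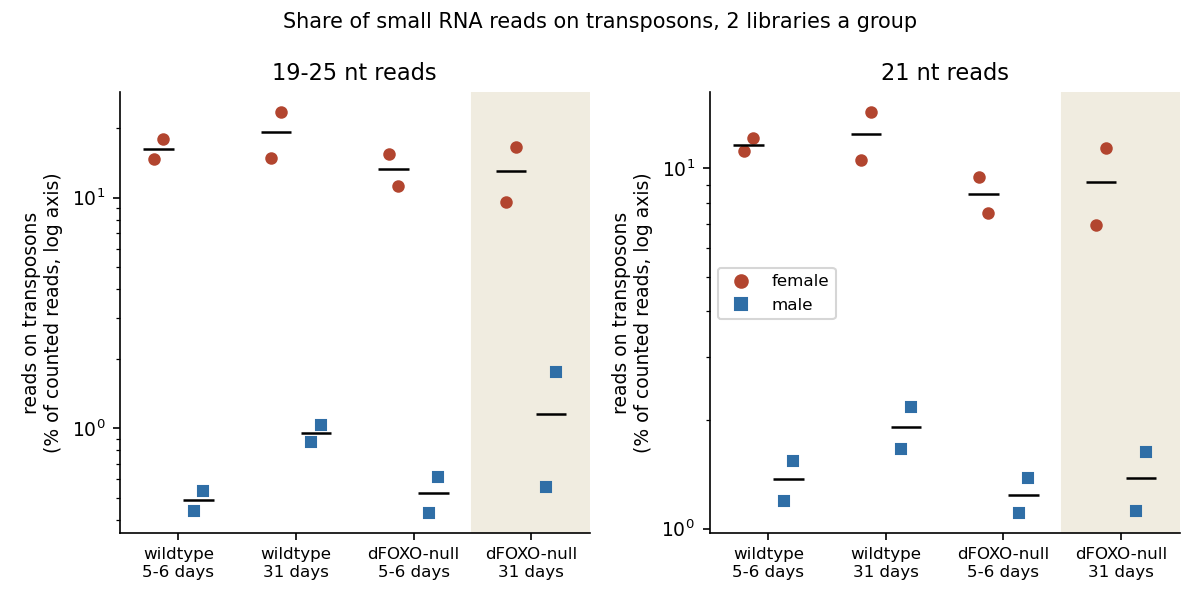
Percent of counted reads on transposons in each of the 16 libraries (log axes), for 19 to 25 nt reads (left panel) and 21 nt reads (right panel), with females (circles) left of males (squares), a line at each mean of 2 libraries and a shaded band for dFOXO-null flies of 31 days. All females lie above all males, and the ratio of means in old dFOXO-null flies is 11.3 for 19 to 25 nt reads and 6.64 for 21 nt reads.

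Almost all transposons took part in the difference. Of 330 features tested in the 19 to 25 nt table, 168 were called (50.9%), 136 of them higher in females (41.2%) and 32 higher in males (9.7%). The 122 transposons supplied 111 of the calls higher in females (91.0% of transposons) and none of those higher in males, whereas the 208 miRNAs tested gave 25 higher in females (12%) and 32 higher in males (15.4%). Both female libraries were above both male libraries for 115 transposons, and the libraries overlapped for the other 7. Among the 208 miRNAs females were above males for 41 and males above females for 74. With 2 libraries a sex such separation also arises by chance. The median log2 fold change of the transposons, female over male, was 3.80 (quartiles 2.84 and 4.31), against 0.84 over all features tested and −0.33 over miRNAs. Other scalings moved this median without turning its sign: it was 3.27 with the trimmed mean of M-values (TMM), 2.68 with DESeq2 and 6.37 with spike-in reads in place of the library total. The log2 fold change was 2 or more for 108 elements and 4 for 51. Without male replicate 2 the median of the transposons was 5.12, and without male replicate 1 it was 3.11.

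**Figure D3:**
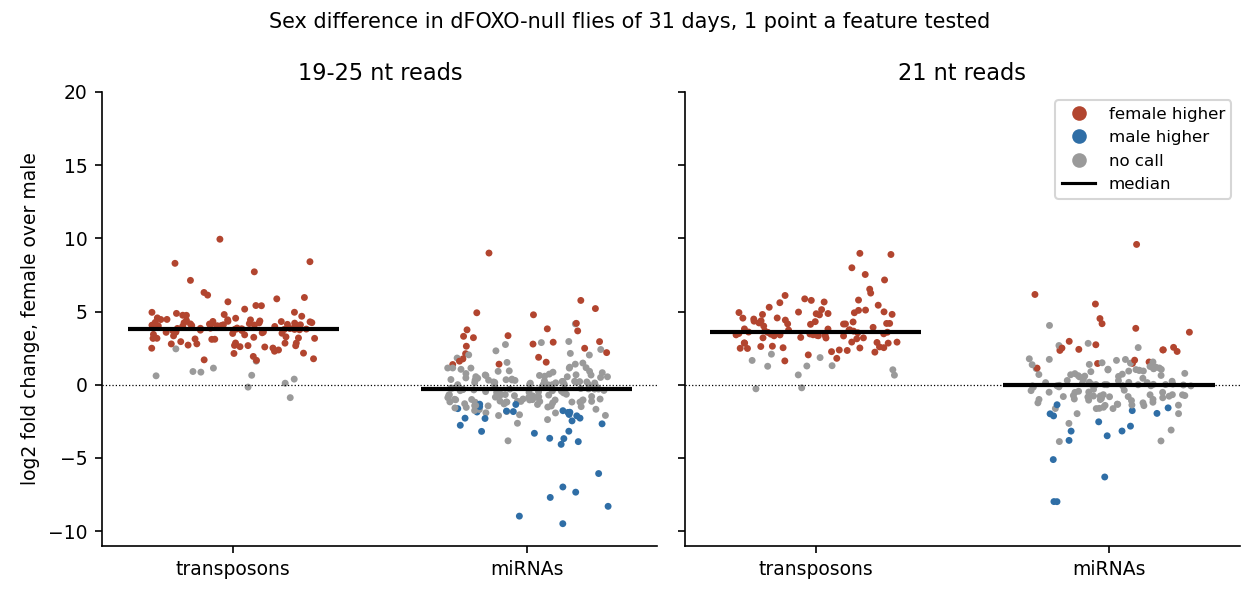
Log2 fold change, female over male, of each transposon and miRNA tested in dFOXO-null flies of 31 days, for 19 to 25 nt reads (left panel) and 21 nt reads (right panel), coloured by the call of edgeR's quasi-likelihood test, with a line at the median. Transposons sit at a median of 3.80 and 3.59, whereas miRNAs spread to both sides of 0.

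Among the elements with the most reads in females were non-LTR and LTR retrotransposons, which copy themselves through RNA. DMRER1DM, known here by its identifier only, held 0.631 and 1.38% of reads in females, against 0.00309 and 0.0660% in males. Its males differed from each other by far more than its females, and the log2 fold change of 4.87 (SE 1.13, edgeR adjusted p = 0.00231) was 8.34 without male replicate 2. Rt1b, a LINE-like element, held 0.526 and 1.15% of reads in females, against 0.00537 and 0.0494% in males. Here too the sexes were apart, and the log2 fold change was 4.95 (SE 0.97, adjusted p = 0.00103, edgeR's quasi-likelihood test), or 7.29 without male replicate 2. The F-element, another LINE-like element, held 0.557 and 0.796% in females, against 0.0132 and 0.0588% in males, a log2 fold change of 4.24 (SE 0.71, edgeR adjusted p = 0.000845), or 5.68 without male replicate 2. Roo, an LTR element, held 0.810 and 1.04% in females, against 0.101 and 0.188% in males. Its log2 fold change was 2.68 (SE 0.49, edgeR adjusted p = 0.000845), below the median of the transposons. Among other LTR elements, DM412 differed by 4.31, Stalker by 4.14, rover by 4.05, DMIS176 by 4.00 and gypsy12 by 3.85 on the log2 scale, and each was called. Without male replicate 2 these 5 differences were 6.30, 5.80, 5.58, 5.68 and 5.98.

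The largest differences were in elements that were nearly unread in males. R1-2 had 249 and 229 reads in females, against 0 and 1 in males, a pooled ratio per counted read of 331 (95% counting interval 59.1 to 13098). HeT-A, a retrotransposon that maintains telomeres, was counted on a sequence whose identifier carries the prefix of another species, and had 167 and 100 reads in females, against 1 and 0 in males (pooled ratio 185, interval 32.9 to 7328). G5A had 193 and 128 reads in females, against 2 and 0 in males, and TAKR1A2 had 193 and 165 in females, against 0 and 3 in males. Such intervals cover counting error only. Rt1c, with 281 and 164 reads in females, against 2 in each male library, differed by 6.12 on the log2 scale, Stalker3 by 5.87 and looper1 by 5.66. Without male replicate 2 these 3 differences were 7.27, 7.01 and 6.81, and without male replicate 1 they were 4.68, 4.42 and 4.22. Transib1 and gypsy9 had no read in either male library. Transib1 had 72 and 48 reads in females, which is at least 27.7-fold higher against a floor of 3 reads over both male libraries, and gypsy9 had 28 and 14, at least 9.69-fold higher.

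Each class of element listed held calls, in shares near the 91.0% of all transposons tested. Female-higher calls were made for 2 of 2 telomeric retrotransposons (median log2 fold change 5.89), 13 of 13 errantiviruses, the gypsy-like elements that can carry an envelope gene (3.51), 11 of 11 numbered gypsy elements (4.21), 5 of 5 invader elements (2.94) and 7 of 7 elements of the mdg1 group (4.09). They were made for 5 of 6 BEL and copia elements (2.74), 19 of 20 LINE-like elements (4.12) and 10 of 11 DNA transposons, which move by excision (2.84). TART-C, a telomeric element, held 0.0946 and 0.137% in females, against 0.00196 and 0.0122% in males, a log2 fold change of 4.07 (SE 0.79, edgeR adjusted p = 0.000993) that was 5.88 without male replicate 2. Every valid alignment was kept, so related elements may share reads, and the counts within a class cannot be taken as independent. In 21 nt reads 9 of 10 DNA transposons were higher in females, and 3 under TMM.

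A few elements showed no call. Copia held 0.0347 and 0.0670% of reads in females, against 0.0237 and 0.0415% in males, and the groups overlapped (log2 fold change 0.64, SE 0.56, edgeR adjusted p = 0.370). The foldback element counted as DMTNFB held 0.0126 and 0.0222% in females, against 0.0217 and 0.0427% in males, a log2 fold change of −0.89 (SE 0.60, edgeR adjusted p = 0.248). With TMM as scaling DMTNFB was called higher in males (log2 fold change −1.49, edgeR adjusted p = 0.0104), the only transposon so called. A second foldback entry, counted as FB, went the other way, with 102 and 81 reads in females, against 21 and 4 in males. Besides copia and DMTNFB, the 9 uncalled elements were G3, QBERT and 7 given by identifiers only. G3, at 40 and 30 reads in females, against 3 and 4 in males, was called with a replicate block within the genotype (edgeR adjusted p = 0.0383), a fit that pairs the libraries of a number. The make-up of the transposon reads also differed. Roo took 8.45 and 6.29% of the transposon reads of females, against 18.1 and 10.7% of those of males, and copia took 0.363 and 0.404% in females, against 4.26 and 2.37% in males.

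In 21 nt reads the difference in transposons was similar in extent, with exceptions among the most read elements. Of 258 features tested, 132 were called (51.2%), 116 higher in females (45.0%) and 16 higher in males (6.2%). Among 105 transposons 94 were higher in females (89.5%) and none in males. The median log2 fold change was 3.59, or 3.89 without male replicate 2 and 3.60 without male replicate 1. G6_DM had 370 and 206 reads in females, against 5 and 1 in males, with a log2 fold change of 6.53 (SE 0.62, edgeR adjusted p = 1.28e-05). DM06920 (6.10), CIRC (5.76), Rt1b (5.65), DMREPG (5.13) and the DNA transposon Bari1 (4.98) followed. DM06920 stood at 7.87 without male replicate 2 and at 4.62 without male replicate 1. Roo held 0.608 and 0.989% of 21 nt reads in females, against 0.377 and 0.411% in males. Its female values were above its male values, and the log2 fold change of 1.02 was not called (SE 0.45, edgeR adjusted p = 0.0762), though it was with the replicate number as a block over all libraries (0.0461). The errantivirus DMIS297, at 0.288 and 0.410% in females, against 0.0518 and 0.143% in males, was not called either (log2 fold change 1.85, SE 0.78, edgeR adjusted p = 0.0619). It was called with the block within the genotype (2.03, edgeR adjusted p = 0.0157) and without male replicate 2 (2.75, 0.0464). DMTNFB, at 0.0717 and 0.111% in females, against 0.0781 and 0.144% in males, was not called, and TMM called it higher in males (edgeR adjusted p = 0.0335).

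Male transposon reads were more often 21 nt long. Of all transposon reads of 19 to 25 nt, 8.55 and 9.88% were 21 nt in females, against 30.9 and 17.8% in males. The other conditions gave 7.51 to 11.4% in females and 25.1 to 39.4% in males, so male replicate 2 lay below the other males. In miRNA reads the share of 21 nt was 12.2 and 15.3% in females, against 15.3 and 19.2% in males. For roo, 8.88 and 13.7% of reads were 21 nt in females, against 57.4 and 41.8% in males, and for DMIS297 the values were 20.3 and 24.9% in females, against 60.9 and 49.5% in males. DMTNFB was mostly 21 nt in both sexes, with 67.3 and 71.9% in females, against 55.3 and 64.7% in males. Among 51 elements with at least 50 reads in each of the 4 libraries, both males were above both females for 25. Their median 21 nt shares were 6.66 and 7.60% in females, against 16.8 and 9.12% in males. Elements with few male reads were left out here. With 2 libraries a sex such separation also arises by chance, so the 25 alone do not show a sex difference.

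miRNAs moved in both directions, and their balance depended on the scaling. Of 208 miRNAs tested at 19 to 25 nt, 57 were called, 25 higher in females and 32 in males. These p-values were adjusted over miRNAs and transposons together. With adjustment within miRNAs alone 37 were called, 17 higher in females and 20 in males. Both female libraries were above both male libraries for 41 of the 208 miRNAs. Both male libraries were above both female libraries for 74, and the libraries overlapped for 93. With 2 libraries a sex, such separation also arises by chance, so the 41 and 74 alone do not show a sex difference. Shares of a library sum to a whole, so a larger share of transposon reads leaves a smaller one for miRNAs. With TMM the median log2 fold change of all miRNAs was −0.96 and 19 were higher in females and 63 in males. With the size factors of DESeq2 it was −1.53, with 12 higher in females and 105 in males, with miRNA reads as library size −0.13, with 26 and 25, and with scaling to the spike-ins 1.82, with 23 and 4. The spike-in reads themselves ranged widely, from 0.00403 to 0.0985% of counted reads over these 4 libraries. Among reads of 21 nt 22 of 153 miRNAs were higher in females (14.4%) and 16 in males (10.5%), with a median of 0.00, with TMM 7 and 41, with a median of −0.94, and with DESeq2 7 and 58. With the block within the genotype the 21 nt calls were 26 in each direction. With adjustment within miRNAs alone the 21 nt calls were 8 higher in females and 7 in males. Each miRNA that follows is given relative to all counted reads.

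The female-higher miRNAs were led by those of the ovary. miR-989-3p, which acts in the migration of border cells in the egg chamber, held 1.21 and 0.561% of reads in females, against 0.0117 and 0.0534% in males. Both females were above both males, and the log2 fold change was 4.78 (SE 0.90, edgeR adjusted p = 0.000855), or 6.25 without male replicate 2. miR-994-5p held 0.968 and 0.383% in females, against 0.00314 and 0.0340% in males (log2 fold change 5.20, SE 1.09, edgeR adjusted p = 0.00124), and miR-994-3p differed by 5.76. They stood at 7.75 and 7.45 without male replicate 2, and miR-994-3p stood at 4.61 without male replicate 1. miR-318-3p, from the same locus of chromosome 3R, held 0.558 and 0.769% in females, against 0.00621 and 0.0668% in males, a log2 fold change of 4.19 that was 6.74 without male replicate 2. All 4 strands were called under TMM and in 21 nt reads, where miR-989-3p alone reached 7.96 and 2.82% in females, against 0.0499 and 0.188% in males. In the BDGP6.54 annotation the mir-318 and mir-994 hairpins lie at chr3R:10408137-10408369.

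The mir-309 cluster, transcribed at the start of zygotic transcription in the embryo, was higher in females for 5 of 5 strands tested. miR-6-3p held 0.0308 and 0.120% in females, against 0.00846 and 0.0117% in males, a log2 fold change of 2.90 (SE 0.76, edgeR adjusted p = 0.00545). miR-286-3p differed by 3.68, miR-5-5p by 2.63, miR-4-3p by 2.94 and miR-3-3p by 2.49. miR-4-3p lost its call without male replicate 1 (edgeR adjusted p = 0.197) and miR-3-3p without male replicate 2 (0.0567). Under TMM 4 of 5 were called, without miR-3-3p, and in 21 nt reads 3 of 4, of which TMM called 0.

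Strands of mir-9c, mir-306 and mir-9b, which lie together with mir-79 on chromosome 2L, were picked out after their values were seen. Values of mir-79 are not reported here. miR-9c-5p held 1.48 and 0.560% of reads in females, against 0.122 and 0.0843% in males, a log2 fold change of 3.30 (SE 0.65, edgeR adjusted p = 0.00101). miR-306-5p held 0.537 and 0.499% in females, against 0.0357 and 0.0379% in males (log2 fold change 3.82, SE 0.68, edgeR adjusted p = 0.000845). miR-9b-5p held 1.96 and 0.550% in females, against 0.316 and 0.232% in males, and its log2 fold change of 2.19 was not called under TMM (edgeR adjusted p = 0.106) or without male replicate 2 (0.0722). In contrast, miR-9a-5p of the same seed family, encoded elsewhere, held 1.10 and 0.616% in females, against 2.47 and 1.75% in males, and was not called (edgeR adjusted p = 0.0504). It was called higher in males with the block within the genotype (−1.33, edgeR adjusted p = 0.0233) and without male replicate 2 (0.0487). The miR-9 family as listed gave 3 of 5 strands higher in females and none in males, or 1 in males with the block. This list appears to share a strand with the mir-309 cluster, since both had the same largest log2 fold change in 21 nt reads (2.96).

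Other female-higher miRNAs were fewer and their calls less firm. miR-956-3p was one of the most abundant miRNAs, with 10.3 and 10.4% of reads in females, against 4.26 and 2.89% in males. No library of one sex fell within the range of the other. With adjustment within miRNAs alone miR-956-3p was not called (edgeR adjusted p = 0.0524). Its log2 fold change of 1.54 (SE 0.52, edgeR adjusted p = 0.0230) was not called under TMM (adjusted p = 0.344, edgeR) or without male replicate 1 (0.0513) or 2 (0.131). miR-312-3p held 0.0517 and 0.0919% in females, against 0.00865 and 0.0246% in males, a log2 fold change of 2.12 that was not called without male replicate 1 (edgeR adjusted p = 0.165). miR-314-3p held 0.0585 and 0.0721% in females, against 0.0184 and 0.0173% in males (log2 fold change 1.87), and kept its call without either male library. In the K-box family, whose members share a seed and target Notch pathway genes, 3 of 8 strands were higher in females, miR-6-3p, miR-13a-3p (1.40) and miR-13b-3p (1.38). miR-13a-3p was not called without male replicate 1 (edgeR adjusted p = 0.100), nor miR-13b-3p without either male library (0.106 and 0.0518). Neither was called under TMM (edgeR adjusted p = 0.145 and 0.208), which called 1 of 8 in each direction. miR-1002-3p had 11 and 34 reads in females and none in either male, at least 10.4-fold higher against the floor of 3 reads, with no call without male replicate 1 (edgeR adjusted p = 0.0740).

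**Figure D4:**
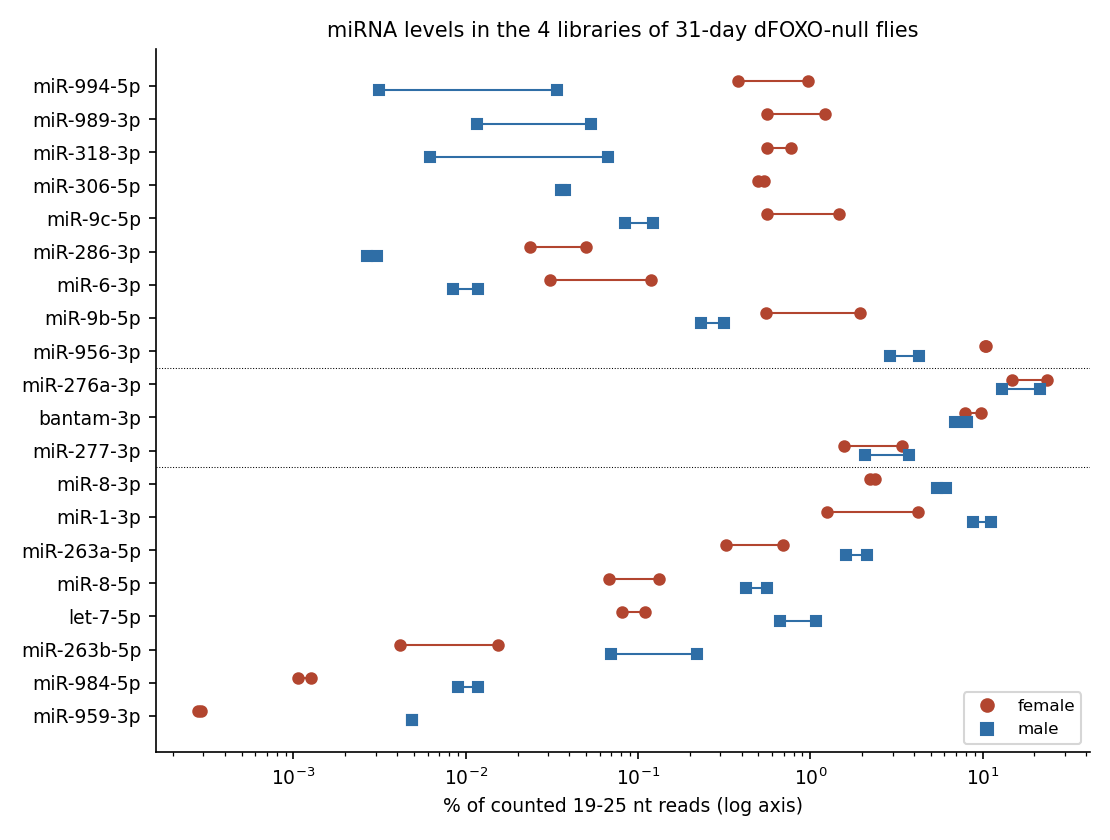
Level of 20 miRNA strands in the 4 libraries of 31-day dFOXO-null flies, as percent of counted 19 to 25 nt reads on a log axis, with females (circles) above males (squares) in each row and a line joining the 2 libraries of a sex. Dotted lines separate 9 strands called higher in females, 3 without a call and 8 called higher in males; let-7-5p sits at 0.0810 and 0.110% in females, against 1.07 and 0.667% in males.

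The male-higher miRNAs were led by testis clusters of the X chromosome. All 5 tested strands of the mir-972 to mir-979 cluster (chrX:19551528-19559120 for the strands read) were higher in males, in 19 to 25 nt reads, and 3 of 3 in 21 nt reads. miR-976-3p had 2 and 0 reads in females, against 381 and 62 in males, a pooled ratio of 320 in favour of males (95% counting interval 88.0 to 2650). miR-973-5p had 1 and 0 reads in females, against 104 and 18 in males. miR-974-5p and miR-975-5p had no read in females and were at least 10.6-fold and 16.4-fold higher in males against the floor. In a second X-linked group, miR-982-5p held 0.000416 and 0.000490% in females, against 0.00540 and 0.00603% in males (log2 fold change −3.66, SE 0.68, edgeR adjusted p = 0.000845), and miR-984-5p and miR-983-5p differed by −3.18 and −2.04. The list of fast-evolving testis miRNAs that holds this group was mixed. Of its 6 strands tested, 3 were higher in males, 1 was higher in females (miR-1002-3p) and 2 had no call, with a median of −0.94. Of the mir-959 to mir-964 cluster of chromosome 2L, 4 of 9 strands were higher in males and 7 of 9 under TMM, with miR-959-3p at −4.08 and miR-960-3p at −3.68. Without male replicate 2 the log2 fold change was −4.08 for miR-959-3p and −3.77 for miR-960-3p, and without male replicate 1 miR-983-5p was not called (edgeR adjusted p = 0.0612).

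By chromosome, 14 of 31 X-linked miRNAs were higher in males and none in females, beside 15.4% higher in males over all miRNAs tested. In 21 nt reads the numbers were 5 and 1 of 21. The 170 miRNAs tested from the arms 2L, 2R, 3L and 3R gave 25 higher in females and 16 in males. The X-linked calls include the strands of the X-linked testis groups given above, so they partly repeat those results. This split was noticed in the data and was not tested.

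Other male-higher miRNAs are expressed in somatic tissues. let-7-5p, which acts in the timing of development and in adult neuromuscular maturation, held 0.0810 and 0.110% of reads in females, against 1.07 and 0.667% in males. Both males were above both females, and the log2 fold change was −3.19 (SE 0.60, edgeR adjusted p = 0.000845), or −3.49 without male replicate 2. Within the let-7 complex, miR-125-3p was also called (−2.13), though not without male replicate 2 (edgeR adjusted p = 0.0521), whereas miR-100-5p held 0.0459 and 0.0701% in females, against 0.106 and 0.123% in males, and miR-125-5p held 0.0190 and 0.132% in females, against 0.0523 and 0.523% in males, with no call for either. TMM called miR-125-5p higher in males (−2.61, edgeR adjusted p = 0.0497). At 21 nt let-7-5p held 0.605 and 0.603% in females, against 5.94 and 2.67% in males (−2.83).

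miR-263b-5p, which protects sensory bristle cells from apoptosis together with miR-263a, held 0.00416 and 0.0154% in females, against 0.0701 and 0.219% in males, a log2 fold change of −3.89 (SE 1.13, edgeR adjusted p = 0.0106) that was not called without male replicate 2 (−2.85, adjusted p = 0.0579). miR-263a-5p held 0.694 and 0.323% in females, against 2.14 and 1.61% in males (−1.88, adjusted p = 0.00953, edgeR). miR-8-5p differed by −2.31 and miR-8-3p by −1.33. miR-8-3p, a regulator of growth and insulin signalling in the fat body, held 2.37 and 2.23% in females, against 5.44 and 6.14% in males, and lost its call without male replicate 1 (edgeR adjusted p = 0.0557) or 2 (0.0738). miR-1-3p, the muscle miRNA, held 4.20 and 1.25% in females, against 11.1 and 8.76% in males, a log2 fold change of −1.87 (SE 0.63, edgeR adjusted p = 0.0238). It was not called under TMM (adjusted p = 0.0610, edgeR), without male replicate 1 (0.110) or without female replicate 2 (0.166), and the other muscle miRNA, miR-133-3p, held 0.0167 and 0.0547% in females, against 0.0284 and 0.0330% in males. miR-986-5p held 0.259 and 0.0788% in females, against 0.757 and 0.423% in males (−1.80), with no call without male replicate 1 (edgeR adjusted p = 0.111), and miR-993-3p held 0.0165 and 0.0302% in females, against 0.0774 and 0.0823% in males (−1.78), with a call without either male library.

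Most of the abundant miRNAs were not called, though the median log2 fold change of the 20 most abundant was −1.06. miR-276a-3p, a neuronal miRNA, held 23.7 and 14.7% of reads in females, against 21.5 and 12.9% in males, miR-276b-3p 15.1 and 10.6% in females, against 14.4 and 9.46% in males, and bantam-3p, which promotes growth and blocks apoptosis, 7.91 and 9.80% in females, against 6.93 and 8.13% in males. None of the 3 was called, with adjusted p of 0.828, 0.885 and 0.709 in edgeR's quasi-likelihood test. miR-34-5p, known for its rise in the ageing brain, held 1.50 and 3.35% in females, against 4.33 and 8.96% in males. Its males were above its females, but the log2 fold change of −1.45 had an SE of 0.89 (edgeR adjusted p = 0.200), and TMM called it (0.0306). miR-14-3p and miR-277-3p, both of which act in metabolism, differed widely between replicates. miR-14-3p held 0.265 and 3.84% in females, against 1.64 and 11.6% in males, so that the male was above the female of its own number in both pairs. Its log2 fold change was −1.69 without a block (edgeR adjusted p = 0.298) and −1.92 with the block within the genotype, where it was called (0.0249). miR-277-3p held 1.57 and 3.39% in females, against 2.09 and 3.76% in males. The 20 most abundant miRNAs took 77.8 and 71.2% of reads in females, against 90.6 and 87.5% in males. Mean levels were at least 2-fold higher in females for 2 of them and at least 2-fold lower for 11. Of those 11, 8 were at least 2-fold lower within both replicate numbers. Of the 20, 1 was called higher in females and 3 in males. With the block within the genotype 1 and 7 were called, the added ones being miR-14-3p, miR-10-3p, miR-9a-5p and miR-7-5p. With adjustment within miRNAs alone, without a block, miR-263a-5p kept its call (edgeR adjusted p = 0.0278). miR-956-3p (0.0524), miR-1-3p (0.0524) and miR-8-3p (0.0525) lost theirs.

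Hairpins with a call more often had 1 arm called than both. Of 64 hairpins with both arms tested, 3 had both arms higher in females (mir-994, mir-995 and mir-9b), 3 had both higher in males (mir-8, mir-927 and mir-959), 19 had 1 arm called and 39 none. No hairpin had arms called in opposite directions.

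Reads on annotated transcripts gave 285 calls of 1566 transcripts tested (18.2%), 193 higher in females (12.3%) and 92 higher in males (5.87%). With the block within the genotype, which follows the labelled sibships, the same contrast gave 410 calls, 277 higher in females and 133 in males, and with a number shared by both genotypes 462, 315 in females and 147 in males. Of the 92 male-higher calls, 85 were made again without male replicate 1 and 89 without male replicate 2. Of the 193 female-higher calls, 28 were made again without male replicate 1 and 98 without male replicate 2. Some copies of a gene had the same counts: the 193 female-higher transcripts had 162 distinct sets of counts and the 92 male-higher transcripts 79.

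The male-higher transcripts were mostly of the Y chromosome and the Stellate family. Stellate genes of the X chromosome encode a protein that forms crystals in spermatocytes when Suppressor of Stellate repeats, Su(Ste), on the Y chromosome do not silence them through piRNAs. The family took 0.0426 and 0.0464% of reads in females, against 3.71 and 5.50% in males, and 37 of its 40 transcripts were higher in males. Su(Ste):CR42420 had 5 and 0 reads in females, against 2996 and 911 in males, and Su(Ste):CR42444 had 5 and 0 reads in females, against 2992 and 918 in males, a log2 fold change of −10.94 (SE 1.64, edgeR adjusted p = 0.000182). Ste:CG33237 had 2 and 0 reads in females, against 438 and 157 in males, a pooled ratio of 623 in favour of males (95% counting interval 172 to 5153). All 13 X-linked copies (chrX:14000210-14061817) and 24 of 27 Y-linked copies (chrY:869892-2595311) were called. The 3 uncalled copies, Su(Ste):CR42421, Su(Ste):CR42427 and Su(Ste):CR42415, each had 80 and 29 reads in females, against 60 and 18, 23 and 10, and 49 and 19 reads in males. Some copies had the same counts and may share reads, so the level of a single copy is uncertain.

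Outside the Stellate family, 30 of 34 Y-linked transcripts were higher in males. Of these, lncRNA:CR40629 had no read in females, against 362 and 145 in males, at least 354-fold higher against the floor of 3 reads. The other 29 were annotated pseudogenes, 29 of 32 tested between chrY:3026761 and chrY:3273532, with 28 to 199 reads in male replicate 1 and 10 to 63 in male replicate 2. Acp62F, an accessory gland protein passed to the female at mating, had no read in females, against 22 and 11 in males, at least 23.0-fold higher. In addition, 7 of 102 miRNA hairpins were higher in females and 19 in males, which repeats the mature miRNA table: mir-976 had 2 and 0 reads in females, against 405 and 71 in males, and mir-989 held 2.98 and 1.09% of reads in females, against 0.0388 and 0.123% in males. Without male replicate 1 none of the 7 female-higher hairpin calls was made.

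Most of the female-higher transcripts were annotated as protein-coding, as were 746 of the 1566 transcripts tested. Of these 746, 18.1% were called higher in females, beside 12.3% over all transcripts. Outside the histone genes and the Y chromosome, 105 of 619 protein-coding transcripts were higher in females and 4 in males. Their median log2 fold change was 1.47, beside 0.43 over all transcripts tested. Without male replicate 1 there were 23 female-higher calls and without male replicate 2 there were 93. CG40813 had 1642 and 502 reads in females, against 5 in each male library, a log2 fold change of 6.21 (SE 0.88, edgeR adjusted p = 0.000105), or 7.36 without male replicate 2 and 5.15 without male replicate 1. CG41562 (6.14), CG10993 (5.93), syd (5.56), a kinesin adaptor of axonal transport, MFS17 (5.53), lncRNA:CR45174 (5.42) and lncRNA:CR46123 (5.33) were next. Of these, syd was not called without male replicate 1 (edgeR adjusted p = 0.0666). The counts of 1 female-higher transcript followed those of a transposon: CG7564 had 8888 and 4276 reads in females, against 116 and 128 in males, and the retrotransposon DM412 had 9005 and 4273 in females, against 115 and 130 in males, within 5% in every library. Whether the same reads were counted was not tested.

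Flam, on the X chromosome (chrX:21631891-21723625), was higher in females for 3 of 4 transcripts, and for 4 of 4 with the block within the genotype. The transcript lncRNA:flam FBtr0347223 had 258 and 203 reads in females, against 2 and 7 in males, a log2 fold change of 4.15 (SE 0.96, edgeR adjusted p = 0.00630), or 6.79 without male replicate 2 and 2.82 without male replicate 1, where it was not called (edgeR adjusted p = 0.0784). Small nucleolar RNAs, which guide the modification of ribosomal RNA, had 24 female-higher calls of 131 and none in males, beside 12.3% over all transcripts, and 1 without male replicate 1 and 11 without male replicate 2. snoRNA:U3:54Aa held 0.212 and 0.0891% in females, against 0.0247 and 0.0289% in males (log2 fold change 2.49, SE 0.62, edgeR adjusted p = 0.0100), with no call without male replicate 1 (0.113) or 2 (0.0530), and snoRNA:Psi28S-1175b had 177 and 90 reads in females, against 1 and 0 in males, with no call without male replicate 1 (edgeR adjusted p = 0.0541). Histone genes gave 30 of 113 female-higher calls and 23 under TMM, 53 with the block within the genotype, none without male replicate 1 and 1 without male replicate 2. Among them, 18 His3 copies had the same counts, 29 and 24 in females, against 3 and 0 in males.

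The most read structural RNAs gave few calls without a block. Ribosomal RNA fragments took 24.7 and 31.9% of reads in females, against 19.2 and 32.8% in males, with 0 of 98 called in either direction, tRNA fragments 3.82 and 3.11% in females, against 5.73 and 6.54% in males, with 1 male-higher call of 281 (tRNA:Thr-AGT-1-6, not called without male replicate 2), and snRNA fragments 0 of 28. With the block within the genotype 33 tRNAs were called higher in males and 3 snRNAs higher in females, and rRNA again gave none. The hairpin RNA hpRNA:CR46342, a precursor of endogenous siRNAs, held 2.01 and 4.17% in females, against 4.37 and 3.52% in males, with no call (log2 fold change −0.35, edgeR adjusted p = 0.851). lncRNA:roX1, part of the complex that raises X transcription in males, had 43 and 37 reads in females, against 5 and 2 in males, and was called higher in females (log2 fold change 2.66, SE 0.83, edgeR adjusted p = 0.0350), a call lost without either male library (adjusted p = 0.339 without male replicate 1 and 0.0571 without male replicate 2). The strand setting of the counting is not given in the sources used here, so reads of roX1 and reads antisense to it cannot be told apart. Of the yolk and eggshell genes listed, 8 were in the table and 1 passed the filter, with no call, and of the testis genes 9 and 1, again with no call. The foxo gene is not among the transcripts counted, so the genotype label was not checked against its own gene.

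**Figure D5:**
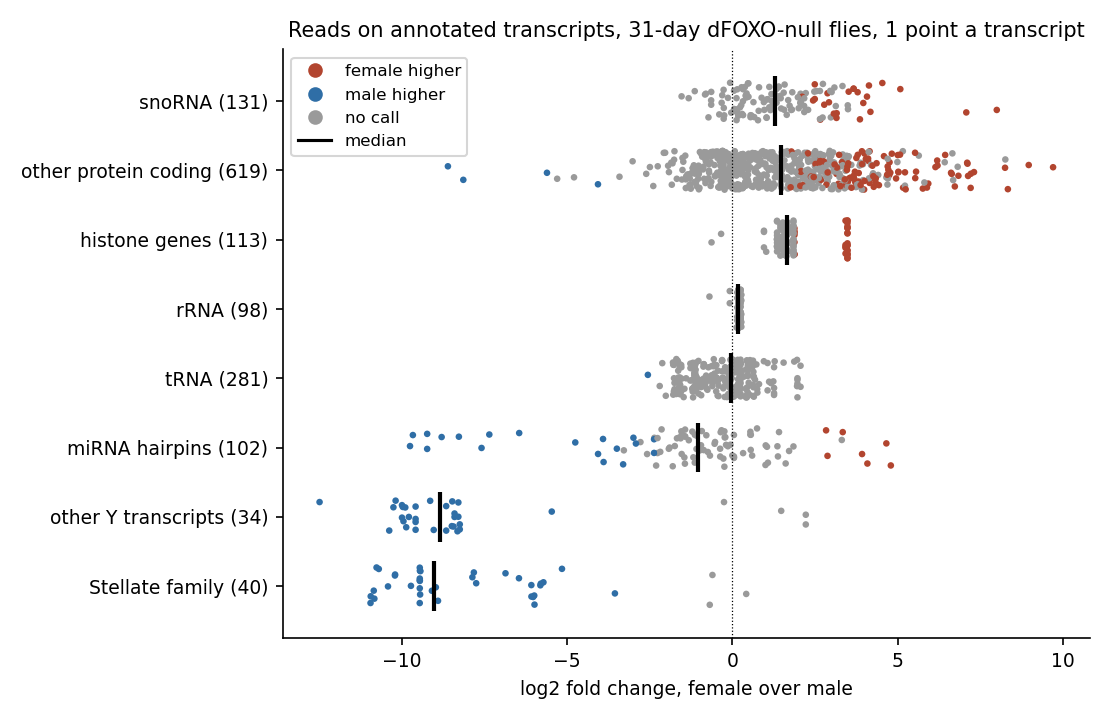
Log2 fold change, female over male, of transcripts in the dm6 table by group, with the number tested in parentheses, 1 point for each transcript coloured by the call of edgeR's quasi-likelihood test and a line at the median. Stellate and other Y-linked transcripts sit far to the male side, ribosomal RNA lies near 0, and female-higher calls are spread over protein-coding, histone and snoRNA transcripts.

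Whether the sex difference depended on age or genotype was asked by testing its departure in old dFOXO-null flies from that in young dFOXO-null flies, and from that in old wildtype flies, in the same fit. No feature was called in either test in any of the 3 tables (0.0% of 330, 258 and 1566 features, edgeR's quasi-likelihood test), and 6 were called by age in 19 to 25 nt reads without male replicate 1. At an unadjusted p under 0.05 there were 19 features by age and 21 by genotype in 19 to 25 nt reads, 2 and 17 in 21 nt reads, and 37 and 61 in the dm6 table. The median log2 fold change of the transposons was 3.80 in old dFOXO-null flies, beside 5.08 in young dFOXO-null and 5.14 in old wildtype flies. The old dFOXO-null median was 5.12 without male replicate 2 and 3.11 without male replicate 1. These comparisons share libraries and are given side by side only.

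The smallest p-values of these tests belonged to single features. DMU89994 was higher in females by 2.50 on the log2 scale in old dFOXO-null flies and by 4.87 in young ones, a difference of −2.37 (SE 0.73, unadjusted p = 0.00589, edgeR adjusted p = 0.621). miR-5-5p differed between the sexes by 2.63 in old dFOXO-null flies and by 5.07 in old wildtype flies, a difference of −2.44 (SE 0.86, edgeR adjusted p = 0.516). For 21 nt reads they were miR-6-3p by age (difference 2.06, edgeR adjusted p = 1.00) and miR-304-3p by genotype (3.26, edgeR adjusted p = 0.622). let-7-5p, at −3.19 in old dFOXO-null flies, stood at −1.18 in young dFOXO-null and −1.76 in old wildtype flies, and its difference by age of −2.01 had an unadjusted p of 0.0226 (edgeR adjusted p = 0.621). miR-1002-3p was read in old dFOXO-null females only among these 4 libraries, and its log2 fold change was −0.09 in young dFOXO-null flies. On annotated transcripts they were scpr-B by age, at 9 and 2 reads in females, against 20 and 3 in males, and mtd by genotype, at 1 and 0 reads in females, against 7 and 0 in males, with adjusted p of 1.00 and 0.958 (edgeR).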

How the data were processed

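Total RNA of 40 whole flies was cut from a gel at 19 to 35 nt, spike-ins were added, and libraries were made with the NEBNext small RNA kit. The authors trimmed reads with Trim Galore, selected lengths in silico, aligned with bowtie to dm6 or to a set of spike-ins, transposons and miRNAs (1 mismatch, all valid alignments) and counted with featureCounts; the sources used here do not give the treatment of multiply aligned reads. The deposited counts are whole reads per feature. The authors also deposited percents of mapped reads without spike-ins, which the counts gave back with a largest relative difference of 0.00334 and which were otherwise not used. Spike-in and virus rows were left out.

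edgeR 4.0.16 (R 4.3.3) was fitted to all 16 libraries with 1 coefficient for each of 8 conditions, library size being counted reads without spike-ins, over features averaging 5 counts or more, and p-values were adjusted by Benjamini-Hochberg. SE is the absolute log2 fold change divided by the square root of the F statistic of the test, so it need not match the p-value beside it. Python 3.11.15 with pandas 2.3.3, scipy 1.17.1 and matplotlib 3.10.9 made the other values, and the test was tried on simulated counts first. Labels say that young and old flies of 1 genotype and replicate were siblings and that the sexes of a genotype were kept together, so numbers were taken to pair libraries within a genotype; over features, the deviations of females and males of a number correlated at 0.534, 0.345 and 0.185 in the 3 tables. Nothing says that libraries of a group came from unrelated stocks. The p-values therefore rest on the spread between replicate libraries, estimated over all 8 conditions, and not on a spread between stocks. Alternatives were TMM, DESeq2 1.42.0, spike-in or miRNA reads as library size, other filters, fewer libraries, a replicate block (within genotype or shared) and leaving out each library. The p-values were also adjusted within miRNAs and within transposons.

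Features named are, in each table and direction, up to 8 calls of largest fold with a mean of at least 50 counts over the 4 libraries and no overlap, the 6 most abundant miRNAs, members of lists, and the smallest p of each interaction. The libraries and lists were chosen with earlier results of these data known. Transposons with no certain name are given by their identifiers. Coordinates come from the BDGP6.54 annotation by symbol or transcript identifier.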

Additional observations from a re-analysis of the deposited data

How the results depend on the processing

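Of 54 named features, 761 alternative values were computed: 691 kept direction and side of the threshold, 55 lost the call, 3 gained one and 12 changed sign. The count of calls at 19 to 25 nt was 92 (78 higher in females, 14 in males) when only the 4 libraries compared were fitted, against 168. At 21 nt it was 52 with scaling to the spike-ins (51 and 1), against 132. In the dm6 table it was 462 with a shared replicate block and 410 with the block within the genotype, against 285, and 113 to 293 when 1 library was left out: 113 without male replicate 1 (28 higher in females, 85 in males), 159 without female replicate 2 (76 and 83), 220 without male replicate 2 and 293 without female replicate 1. The age interaction at 19 to 25 nt gave 0 to 6 calls when 1 library was left out, 6 of them without male replicate 1. TMM gave 129 and 64 calls at 19 to 25 nt, 86 and 42 at 21 nt and 155 and 96 in dm6, higher in females and in males, and DESeq2 113 and 106, 85 and 59, and 204 and 133; the cause of these shifts was not tested.

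Neither replicate block changed a call among these 54 features; changed calls of other features that bear on a result stand beside it. The share difference of transposons stayed female-higher in every library left out, at 8.43 to 15.4 percentage points around 11.9 at 19 to 25 nt.

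Values that changed sign were near 0 or scaling-bound. miR-276a-3p stood at −0.39 with TMM, −0.93 with DESeq2 and −0.22 to 0.58 with 1 library left out, the lower values without female replicate 1 (−0.22) or male replicate 2 (−0.16), miR-276b-3p at −0.46, −1.0017 and −0.17 to 0.44, and bantam-3p at −0.37 and −0.94 (DESeq2 adjusted p = 0.0383, higher in males). With spike-in scaling miR-1-3p stood at 0.96 and miR-34-5p at 0.71. Depth limits features with few reads in male replicate 2, where 1 read is the difference between a ratio and a bound.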
